A study of Rattus norvegicus with 12 samples.

Results

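Runx2, Sp7, Dlx5, Alpl, Bglap, Ibsp and Spp1 are genes of the osteoblast, the cell that lays down and mineralises bone. They were taken by symbol from a table of 33801 genes, in which each of the 7 stood on 1 row, and they are described here across 4 groups of rat peri-implant bone. All groups were bone of wild-type rats from around a mini-implant at the maxillary first molar, and a piece 4 mm in diameter was sampled for RNA. The groups were loaded Nb3 alloy (implants of Zr58Cu25Al14Nb3 under cyclic loading for 2 weeks), non-loaded Nb3 alloy (the same alloy, static), loaded cpTi (titanium under the same loading) and non-loaded cpTi (titanium, static), with 3 libraries each. The series asks what cyclic loading does to the bone beside each material. The labels give neither strain, sex nor age of the rats, and do not say whether replicates came from separate animals. The p-values therefore measure the spread between these samples only, which may be technical.

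In background, Runx2 is the Runt domain transcription factor without which osteoblasts do not form, Sp7 (osterix) is the zinc finger factor that acts after it, and Dlx5 is a homeodomain factor of the same lineage. Alpl is the tissue-nonspecific alkaline phosphatase, which frees phosphate and removes the mineral inhibitor pyrophosphate. Bglap (osteocalcin), Ibsp (bone sialoprotein) and Spp1 (osteopontin) are proteins of the mineralised matrix. Bglap is made by mature osteoblasts. Ibsp is linked to the start of mineral deposition. Spp1 binds mineral and cell surface integrins, and it is also made by osteoclasts and macrophages.

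Reads on genes numbered 12911912 to 22308428 per library. The other 9 libraries were alike, and the 3 of loaded Nb3 alloy differed from them. Across the tested genes they correlated with the others at 0.731 to 0.866, and the other 9 among themselves at 0.932 to 0.969. They were nearly without marrow markers. The summed level of 6 neutrophil precursor genes was 4.12 to 30.5 FPKM in loaded Nb3 alloy, against 1898 to 4433 FPKM in non-loaded Nb3 alloy, 1502 to 1604 FPKM in loaded cpTi and 1865 to 2866 FPKM in non-loaded cpTi. The 4 ligament and tendon genes summed to 511 to 1060.4 FPKM in loaded Nb3 alloy and 30.5 to 41.6 FPKM in non-loaded Nb3 alloy. Loaded Nb3-alloy replicate 2 differed from its own group as well. Its mitochondrial reads were 24.3% of the library, against 11.97% and 11.3% in replicates 1 and 3 and 4.31% to 6.86% in the other 9 libraries. It held 51.1 FPKM of Krt5, a keratin gene of basal epithelium, which was below 1 FPKM in the other 11. The counts of the 7 genes called are therefore given with and without this library. Markers of tooth-forming cells (Dspp, Ambn and Enam) summed to at most 0.447 FPKM in any library, whereas 6 osteocyte markers, which mark the cells embedded in bone, summed to 326 to 2594 FPKM. In bulk tissue, fewer osteoblasts and less RNA per osteoblast cannot be told apart.

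The 3 transcription factor genes stood below the 4 effector genes per length in every library. FPKM counts fragments per kilobase of gene, scaled by depth. Runx2 (ENSRNOG00000020193, chromosome 9, 16167482 to 16492167, plus strand) had 35.8, 16.5 and 40.9 FPKM in loaded Nb3 alloy (replicates 1, 2 and 3), 23.1, 15.6 and 14.9 in non-loaded Nb3 alloy, 19.2, 32.9 and 19.0 in loaded cpTi and 15.8, 19.9 and 16.3 in non-loaded cpTi. Loaded Nb3-alloy replicates 1 and 3 were the highest of the 12 libraries, replicate 2 lay within the non-loaded range, and loaded cpTi replicate 2 was the third highest. Sp7 (ENSRNOG00000014082, chromosome 7, 133484609 to 133494847, minus strand) had 47.1, 11.97 and 56.9 FPKM in loaded Nb3 alloy (replicates 1, 2 and 3), 30.6, 17.8 and 13.4 in non-loaded Nb3 alloy, 25.3, 46.3 and 29.1 in loaded cpTi and 14.4, 16.9 and 14.4 in non-loaded cpTi. Replicate 2 of loaded Nb3 alloy was the lowest of all libraries for this gene, while all 3 loaded cpTi libraries exceeded all 3 non-loaded cpTi libraries. Dlx5 (ENSRNOG00000010905, chromosome 4, 34999139 to 35003407, minus strand) had 49.6, 14.1 and 41.8 FPKM in loaded Nb3 alloy (replicates 1, 2 and 3), 25.8, 18.5 and 10.5 in non-loaded Nb3 alloy, 13.8, 25.5 and 18.5 in loaded cpTi and 9.83, 12.3 and 13.1 in non-loaded cpTi. Its loaded and non-loaded cpTi values did not overlap either, with a narrow gap between 13.8 and 13.1 FPKM. The span of Runx2 in the table overlaps that of Supt3h on the opposite strand, at 1.51 to 3.13 FPKM. The strand setting of the counting is not given in the sources used here.

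Alpl (ENSRNOG00000013954, chromosome 5, 149951409 to 150006446, minus strand) had 499, 93.0 and 463 FPKM in loaded Nb3 alloy (replicates 1, 2 and 3), 125, 107 and 78.5 in non-loaded Nb3 alloy, 124, 287 and 176 in loaded cpTi and 83.4, 99.7 and 73.7 in non-loaded cpTi. Its range over the 12 libraries was 6.76-fold, and all loaded cpTi values lay above all non-loaded cpTi values. Bglap (ENSRNOG00000019607, chromosome 2, 173838518 to 173839495, minus strand) had 5146, 898 and 4942 FPKM in loaded Nb3 alloy (replicates 1, 2 and 3), 1733, 2207 and 1078 in non-loaded Nb3 alloy, 2133, 3739 and 3056 in loaded cpTi and 1098, 2179 and 1588 in non-loaded cpTi. It was among the most abundant transcripts, at or above percentile 99.7 of the tested genes in each library, and the cpTi groups overlapped through loaded replicate 1. Ibsp (ENSRNOG00000002158, chromosome 14, 5439829 to 5452693, minus strand) had 693, 178 and 1389 FPKM in loaded Nb3 alloy (replicates 1, 2 and 3), 433, 288 and 244 in non-loaded Nb3 alloy, 659.8, 766 and 735 in loaded cpTi and 294, 237 and 451 in non-loaded cpTi. The 3 loaded cpTi libraries lay close together for Ibsp (coefficient of variation 7.59%) and above all non-loaded ones, whereas loaded Nb3 alloy held both the highest and the lowest value of the 12. Spp1 (ENSRNOG00000043451, chromosome 14, 5308885 to 5315162, minus strand) had 2189, 1784 and 3155 FPKM in loaded Nb3 alloy (replicates 1, 2 and 3), 1182, 621 and 1062 in non-loaded Nb3 alloy, 798, 1403 and 995 in loaded cpTi and 542, 1293 and 1176 in non-loaded cpTi. For this gene alone among the 7, all 3 loaded Nb3-alloy libraries, replicate 2 included, exceeded the other 9. The lowest read count behind any value of the 7 genes was 205 reads (Dlx5).

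**Figure D1:**
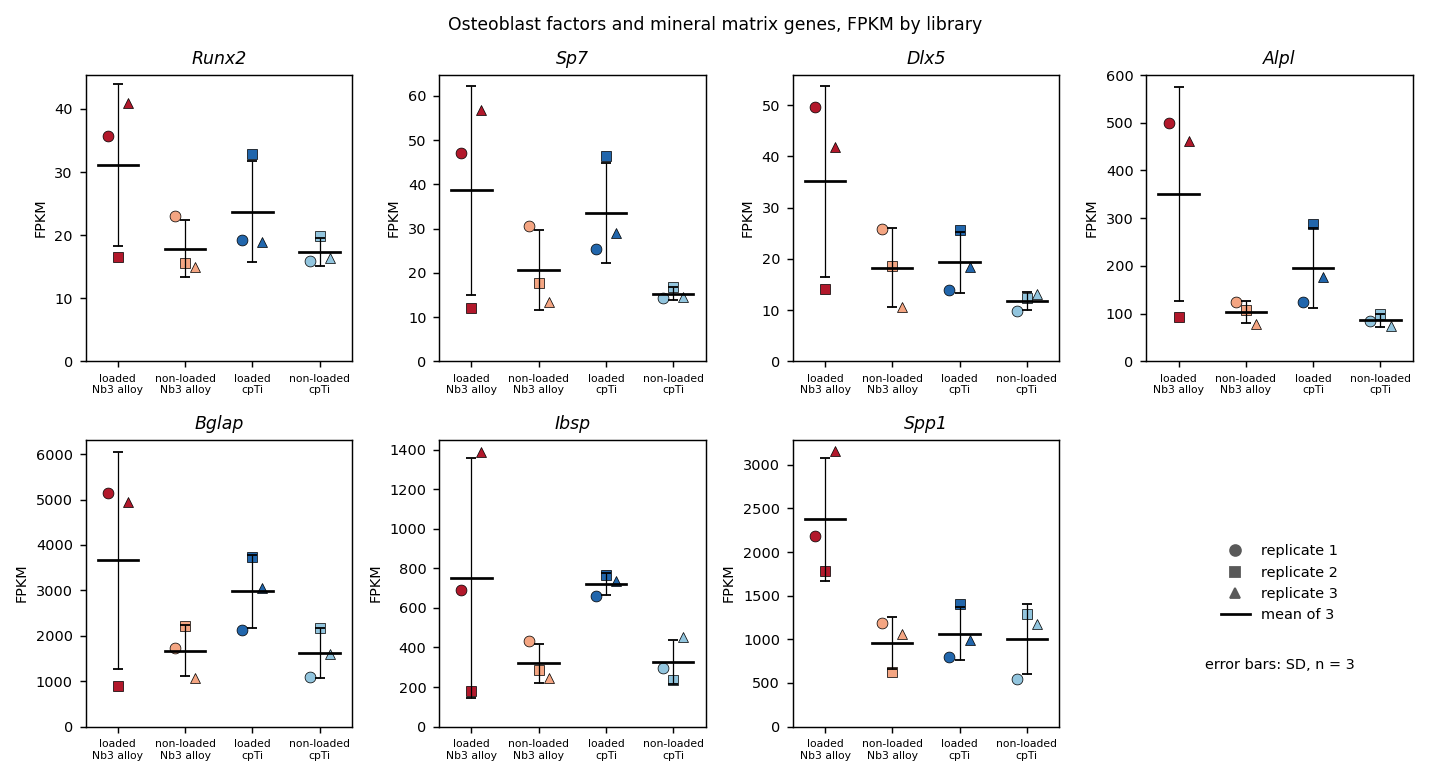
FPKM (vertical axis, from 0) of the 7 genes in the 12 libraries, by group (horizontal axis); symbols mark replicates, bars the mean and SD (n = 3). Loaded Nb3-alloy replicate 2 (red square) sits with the non-loaded libraries or below them for 6 genes, and at 1784 FPKM above all of them for Spp1.

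Spp1 and Ibsp lie in the same gene cluster, with Mepe between them. In the deposited table chromosome 14 carries Spp1, Mepe, Ibsp, Dmp1 and Dspp in this order on the minus strand, from 5308885 to 5571672, the cluster of acidic integrin-binding matrix glycoproteins of bone and tooth. Dspp was at or near 0 FPKM in all libraries (highest 0.0639), while the other 4 were expressed at 100 FPKM or more in all 12. The table's genome build is not given in the sources used here.

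The start regions of the 4 effector genes are shown because their transcripts varied together, with Spp1 as the partial exception described further on. RefSeq promoters (GRCr8, 250 bases before to 50 after the start) were matched by symbol for 5 of the 7 genes, with 2 starts for Runx2; Sp7 and Dlx5 are named only. Capitals mark, on either strand, ACCACA or ACCGCA (the core bound by Runt domain factors such as Runx2), TAATTG (a homeodomain core, as bound by Dlx and Msx factors), GGGCGG (the GC box) and TATAAA (the TATA box). The only overlapping matches were 2 GC boxes of Alpl that share a base. The regions are Bglap (chr2:176137269-176137568, minus strand), Ibsp (chr14:5757193-5757492, minus strand), Spp1 (chr14:5619755-5620054, minus strand) and Alpl (chr5:155289736-155290035, minus strand), each read on its own gene's strand.
Bglap: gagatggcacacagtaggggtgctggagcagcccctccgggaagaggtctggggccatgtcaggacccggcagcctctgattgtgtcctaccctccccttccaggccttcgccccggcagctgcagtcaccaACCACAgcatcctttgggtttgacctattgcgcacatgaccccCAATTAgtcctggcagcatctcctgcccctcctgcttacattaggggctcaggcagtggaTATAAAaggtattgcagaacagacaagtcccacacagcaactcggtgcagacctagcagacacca
Ibsp: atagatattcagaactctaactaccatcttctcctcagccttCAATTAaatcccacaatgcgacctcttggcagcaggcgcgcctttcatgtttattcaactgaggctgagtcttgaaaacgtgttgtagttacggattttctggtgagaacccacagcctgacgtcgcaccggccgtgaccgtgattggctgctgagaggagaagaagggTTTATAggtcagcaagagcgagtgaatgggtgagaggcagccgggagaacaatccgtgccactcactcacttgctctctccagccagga
Spp1: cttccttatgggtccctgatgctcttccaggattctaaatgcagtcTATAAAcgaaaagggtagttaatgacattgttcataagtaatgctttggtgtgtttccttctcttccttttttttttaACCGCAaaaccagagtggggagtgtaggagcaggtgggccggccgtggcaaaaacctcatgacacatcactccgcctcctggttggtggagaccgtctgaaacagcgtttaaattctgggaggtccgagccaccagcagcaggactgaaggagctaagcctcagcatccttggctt
Alpl: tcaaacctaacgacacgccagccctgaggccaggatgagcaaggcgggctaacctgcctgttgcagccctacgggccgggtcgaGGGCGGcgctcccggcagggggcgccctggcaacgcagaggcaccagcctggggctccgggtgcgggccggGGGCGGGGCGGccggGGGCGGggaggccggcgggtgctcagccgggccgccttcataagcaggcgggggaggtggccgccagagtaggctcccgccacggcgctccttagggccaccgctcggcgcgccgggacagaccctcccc

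The Bglap region held a Runt core (-118 to -113 from the start), a homeodomain core on the opposite strand (-75 to -70) and a TATA box (-15 to -10). Ibsp held a homeodomain core (-208 to -203) and a TATA box (-39 to -34), both on the opposite strand, and no Runt core in this window. Spp1 held a Runt core of the ACCGCA form (-126 to -121) and a TATA match far from the start (-204 to -199). Alpl differed from these 3 in base composition, with 76.3% G and C against 58.3% in Bglap, 51.0% in Ibsp and 48.7% in Spp1, and it held 4 GC boxes. The upstream start of Runx2 (GRCr8, chr9:23664808-23665107, plus strand) held 4 Runt cores, 3 of them after the start. The last of these (44 to 49) was on the opposite strand. The downstream start of Runx2 held 1 GC box, also on the opposite strand. Among all 33469 promoters of this length in the table, 22.9% held a Runt core, 8.20% the homeodomain core, 33.1% a GC box and 14.2% a TATA box. Of the 6 promoters of the 7 genes, 3 held a Runt core, 2 the homeodomain core, 2 a GC box and 3 a TATA box. A match describes the letters in the window and not binding.

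Beside the Nb3 alloy, Spp1 was the 1 gene of the 7 that limma called higher under loading. It averaged 2376 ± 704 FPKM under loading, against 955 ± 295 FPKM in static samples (SD, n = 3 each). Its difference was 1.33 on the log2(FPKM + 1) scale (SE 0.39, 95% interval 0.46 to 2.19, adjusted p = 0.0171 by limma with Benjamini-Hochberg adjustment over 15268 tested genes). The other 6 had positive differences that did not pass an adjusted p of 0.05. Alpl averaged 351 ± 225 FPKM under loading, against 103 ± 23.5 FPKM in static samples, a difference of 1.44 (adjusted p = 0.0513 by limma). The differences of Ibsp (0.83), Bglap (0.82), Dlx5 (0.81), Runx2 (0.70) and Sp7 (0.69) had intervals that reached below 0. Of all tested genes 20.7% were called higher in this comparison, so 1 of 7 is no more than that share. The loaded values of Spp1 alone of the 7 lay above the non-loaded ones without overlap, as did 22.9% of tested genes. Spp1 was no longer called when loaded replicate 3 was left out (1.10), when non-loaded replicate 2 was (1.04) and by quantile normalization (0.97), while Alpl was called with a filter of 1 FPKM in 6 libraries (1.44, adjusted p = 0.0486) and by limma-voom (1.46, adjusted p = 0.0356).

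The other 6 differences depended on loaded replicate 2. Measured from the mean of the static Nb3-alloy libraries on the log2 scale, Bglap stood at 1.68, -0.84 and 1.62 in loaded replicates 1, 2 and 3. Ibsp stood at 1.15, -0.81 and 2.15, and Alpl at 2.28, -0.13 and 2.18. Replicate 2 was below the non-loaded mean for all 6 of these genes and above it for Spp1 (0.95). With that library left out, all 7 genes were called higher by limma, against 20.4% of tested genes, and the loaded and non-loaded values of all 7 no longer overlapped, against 28.7% of tested genes that lay higher without overlap. The differences were then 2.23 for Alpl (95% interval 1.52 to 2.94), 1.65 for Bglap (0.80 to 2.504), 1.65 for Ibsp (0.85 to 2.45), 1.51 for Spp1 (0.56 to 2.47), 1.37 for Sp7 (0.66 to 2.07), 1.35 for Dlx5 (0.62 to 2.08) and 1.09 for Runx2 (0.53 to 1.64), with adjusted p between 0.000403 and 0.0156. The 6 genes other than Spp1 varied together, as described further on, and were low together in the omitted library. The counts of genes called and not overlapping are therefore not of 7 separate results. In replicate 2 the 7 osteoclast markers summed to 925 FPKM, against 4441 and 2879.9 FPKM in replicates 1 and 3, and the 8 macrophage markers to 1055 FPKM, against 713 and 609.7 FPKM. The 6 osteocyte markers summed to 665 FPKM in replicate 2, against 2594 and 2470.2 FPKM in replicates 1 and 3. Over the groups, the osteoclast markers summed to 925 to 4441 FPKM in loaded and 538 to 1099.8 FPKM in static Nb3 alloy. The osteocyte markers summed to 665 to 2594 FPKM in loaded and 710 to 2211 FPKM in static Nb3 alloy. The macrophage markers summed to 609.7 to 1055 FPKM in loaded and 417 to 476 FPKM in static Nb3 alloy. Of the 8 macrophage markers, 6 had differences above 0 and 3 were called higher by limma, where 20.7% of tested genes were. Among them Gpnmb averaged 327 FPKM in loaded and 90.8 FPKM in static Nb3 alloy, and Mrc1 19.0 and 22.1 FPKM. Osteoclasts and macrophages are both sources of Spp1. The part of these cells, of the mitochondrial share and of the marrow content in the levels of the 7 genes was not tested.

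**Figure D2:**
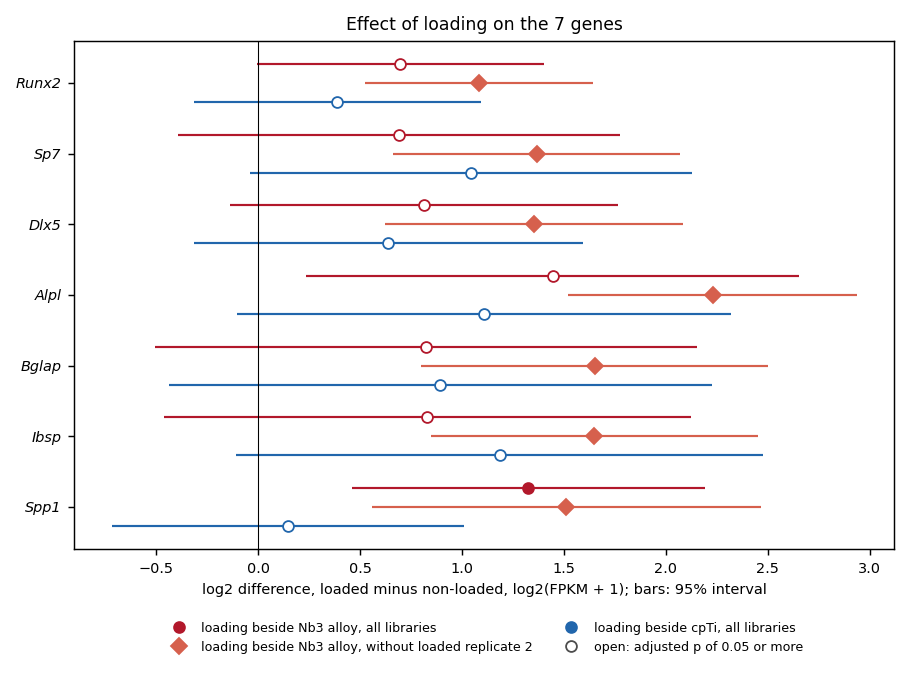
Log2 difference of loaded minus non-loaded samples (horizontal axis, log2(FPKM + 1), with 95% intervals) for each gene (vertical axis), beside Nb3 alloy with all libraries, beside Nb3 alloy without loaded replicate 2, and beside cpTi; filled symbols had an adjusted p under 0.05 by limma. Beside Nb3 alloy Spp1 alone is filled with all libraries and all 7 genes are filled without replicate 2; beside cpTi none is filled and Spp1 is nearest to 0.

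Beside cpTi, none of the 7 genes was called under loading, and limma called 0.00655% of all tested genes (1 gene, with 1062 at an unadjusted p under 0.05). At an unadjusted p under 0.05, limma had 0 of the 7. The differences of the 7 were all positive. Ibsp averaged 720.4 ± 54.7 FPKM under loading, against 327 ± 111 FPKM in static samples (SD, n = 3 each), a difference of 1.19 (95% interval -0.11 to 2.48, adjusted p = 0.747 by limma). Alpl (1.11, -0.10 to 2.32), Sp7 (1.05, -0.039 to 2.13), Bglap (0.89, -0.44 to 2.22), Dlx5 (0.64, -0.32 to 1.59) and Runx2 (0.39, -0.31 to 1.09) followed. Spp1 was the smallest at 0.15 (-0.72 to 1.01), with 1066 ± 309 FPKM under loading, against 1004 ± 404 FPKM in static samples, and it turned to -0.07 with loaded replicate 2 left out and to -0.25 with non-loaded replicate 1 left out. Replicate 2 was the highest of the 3 loaded cpTi libraries for all 7 genes. For Sp7, Dlx5, Alpl and Ibsp the loaded values lay above the non-loaded ones without overlap. That is 4 of 7 genes, and over all tested genes 7.0% lay higher without overlap. The 6 osteocyte markers summed to 968 to 1822 FPKM in loaded cpTi, against 326 to 824 FPKM in non-loaded cpTi, and the 8 macrophage markers to 513 to 568 FPKM in loaded cpTi, against 210.2 to 489 FPKM in non-loaded cpTi; their part was not tested. All 7 intervals include 0, and all reach a log2 difference of at least 1.

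**Figure D3:**
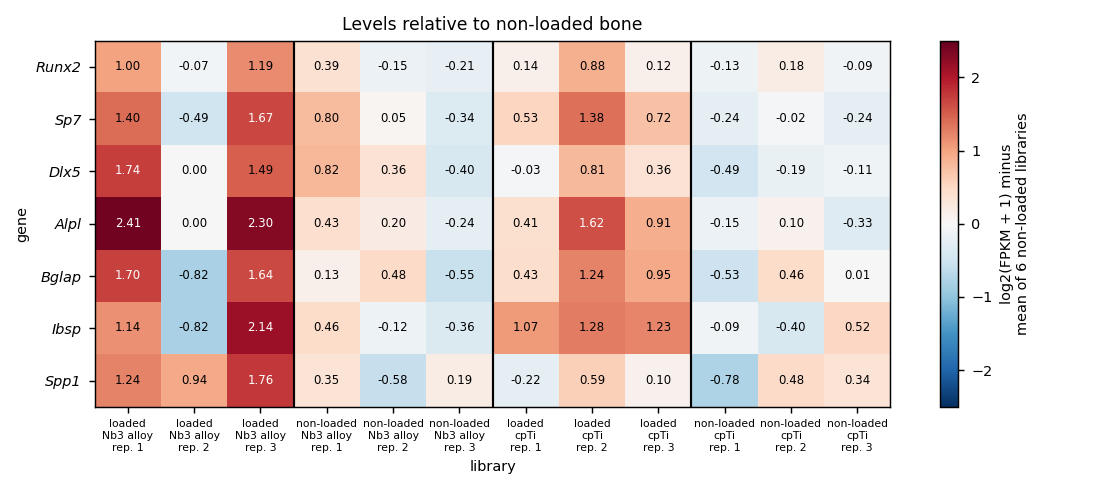
Level of each gene (rows) in each library (columns, by group and replicate) as log2(FPKM + 1) minus the mean of the 6 non-loaded libraries; red is higher and blue lower. Loaded Nb3-alloy replicates 1 and 3 are red in every row and loaded cpTi replicate 2 is red in every row, whereas loaded Nb3-alloy replicate 2 is red for Spp1 and at or below 0 to 2 decimals for the other 6.

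Set against each other under loading, the materials differed in Spp1. It averaged 2376 ± 704 FPKM beside loaded Nb3 alloy and 1066 ± 309 FPKM beside loaded cpTi, with no overlap, as 21.0% of tested genes had in this direction (log2 difference 1.15, SE 0.39, 95% interval 0.29 to 2.02, adjusted p = 0.0424 by limma). Several alternatives ended this call. It was lost under total-read scaling (0.98), quantile normalization (0.71) and no filter (1.15, adjusted p = 0.0672). It was also lost without Nb3-alloy loaded replicate 1 (1.19) or 3 (0.93), without cpTi loaded replicate 1 (0.97) or 3 (1.12), and without non-loaded replicate 3 of either material (1.15 each), which enter through the shared spread. None of the other 6 was called, where 14.7% of tested genes were called higher. Without loaded Nb3-alloy replicate 2, limma called Alpl (1.38, adjusted p = 0.00944), Dlx5 (1.24, adjusted p = 0.0176) and Spp1 (1.34, adjusted p = 0.0371), 3 of 7 where 13.3% of tested genes were called higher. All but Ibsp, 6 of 7, then lay higher beside loaded Nb3 alloy without overlap, as 27.8% of tested genes did. This comparison shares the loaded Nb3-alloy libraries with the loading comparison beside that alloy.

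In static bone the 7 genes were not told apart between the materials. None was called in non-loaded Nb3 alloy against non-loaded cpTi, where limma called 0.0% of tested genes (470 of them had an unadjusted p under 0.05). The differences lay between -0.03 for Spp1 (95% interval -0.89 to 0.84) and 0.52 for Dlx5 (-0.43 to 1.48), and the 2 groups overlapped for all 7. Runx2 had the narrowest interval, at 0.02 (-0.68 to 0.72). At an unadjusted p under 0.05, limma had 0 of the 7.

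The test of whether loading acted differently beside the 2 materials called none of the 7, while limma called 20.2% of tested genes. Spp1 had the largest difference between the loading effects, Nb3 alloy minus cpTi, at 1.18 (95% interval -0.041 to 2.40, unadjusted p = 0.0569, adjusted p = 0.16 by limma). The other 6 lay between -0.36 (Ibsp) and 0.34 (Alpl), with intervals that reached at least 1 in size on both sides except for Runx2 (-0.69 to 1.304). Without loaded Nb3-alloy replicate 2, still none was called (20.7% of tested genes were), and the difference was 1.37 for Spp1 (adjusted p = 0.119) and 1.12 for Alpl (adjusted p = 0.0899). Averaged over both materials, Alpl was called higher under loading (1.28, 95% interval 0.42 to 2.13, adjusted p = 0.0245 by limma), 1 of 7 where 16.0% of tested genes were called higher. The averaged loading differences of the other 6 ran from 0.54 (Runx2) to 1.01 (Ibsp), with adjusted p between 0.0577 and 0.138. Without loaded Nb3-alloy replicate 2 all 7 were called higher in this average, from 0.74 for Runx2 to 1.67 for Alpl, where 16.8% of tested genes were. The call of Alpl in the average was lost under total-read scaling (1.19) and without loaded Nb3-alloy replicate 1 (1.07) or 3 (1.09), non-loaded Nb3-alloy replicate 3 (1.18), loaded cpTi replicate 2 (1.12) and non-loaded cpTi replicate 1 (1.27) or 3 (1.23). The averaged material effect called none of the 7, where limma called 12.3% of tested genes, and without loaded Nb3-alloy replicate 2 it called Alpl (0.82) and Dlx5 (0.88), 2 of 7 where 3.08% of tested genes were called higher.

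Of the 7 genes, 6 varied together and Spp1 followed them less closely. Over the 12 libraries the 15 pairs without Spp1 had Pearson correlations of 0.71 to 0.95 (median 0.89) on the log2(FPKM + 1) scale, and the 6 pairs with Spp1 0.44 to 0.75 (median 0.62). Over the 9 libraries other than loaded Nb3 alloy these ranges were 0.58 to 0.95 and 0.26 to 0.60. The 12 libraries are 4 groups and share the composition differences given above, so the correlations are a description. Sp7 and Alpl were close in both sets (0.94 over 12 and 0.95 over 9 libraries). Ibsp and Spp1, which lie in the same cluster on chromosome 14, were the least close of the 21 pairs (0.44 over 12 and 0.26 over 9).

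Ratios between genes within a library do not depend on its scaling. The ratio of Spp1 to Ibsp, both per length, was 3.16, 10.05 and 2.27 in loaded Nb3 alloy (replicates 1, 2 and 3), 2.73, 2.16 and 4.36 in non-loaded Nb3 alloy, 1.21, 1.83 and 1.35 in loaded cpTi and 1.84, 5.46 and 2.61 in non-loaded cpTi. It was highest in loaded Nb3-alloy replicate 2, and the 3 loaded cpTi libraries were the 3 lowest of the 12, by a margin of 1.84 against 1.83 at the boundary. The ratio of Bglap to Alpl was 10.3, 9.66 and 10.7 in loaded Nb3 alloy, 13.8, 20.7 and 13.7 in non-loaded Nb3 alloy, 17.3, 13.0 and 17.4 in loaded cpTi and 13.2, 21.9 and 21.5 in non-loaded cpTi. All 3 loaded Nb3-alloy libraries, replicate 2 included, lay below the other 9 for this ratio, although replicate 2 had low levels of both genes. An exact two-sided permutation test of 3 against 3 gave p = 0.1 for the ratio of Bglap to Alpl in loaded against non-loaded Nb3 alloy, and p = 0.1 for the ratio of Spp1 to Ibsp in loaded against non-loaded cpTi, which is the smallest p that design allows. Both ratios were picked after their values were seen, from 8 that were computed in each of 4 comparisons. Of these 32 tests 10 gave p = 0.1, and after Benjamini-Hochberg adjustment the smallest exact p was 0.32.

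**Figure D4:**
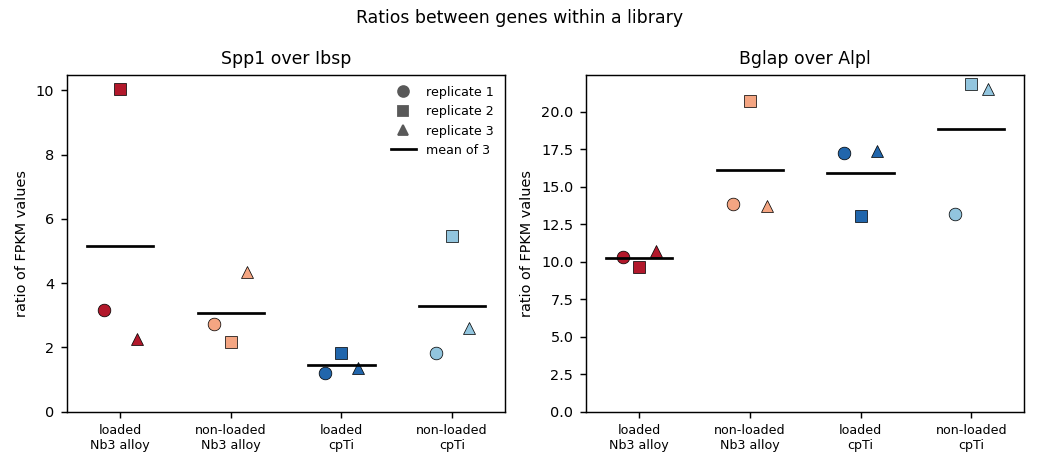
Ratio of FPKM values (vertical axis, from 0) of Spp1 to Ibsp and of Bglap to Alpl within each library, by group (horizontal axis), with the mean of 3 as a bar. Loaded cpTi holds the lowest ratios of Spp1 to Ibsp (1.21, 1.83 and 1.35), and loaded Nb3 alloy the lowest ratios of Bglap to Alpl (10.3, 9.66 and 10.7).

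Of 21 other genes of mineral deposition and bone matrix, all tested, 9 rose and 0 fell by limma under loading beside the Nb3 alloy, with a median difference of 0.81 beside -0.02 over all tested genes. Without loaded replicate 2, 14 rose (median 1.32). Of all tested genes 20.7% were called higher with all libraries and 20.4% without that replicate. Mgp, the matrix Gla protein, an inhibitor of calcification made in cartilage and vessel walls, averaged 487 ± 253 FPKM under loading, against 32.1 ± 11.4 FPKM in static samples (3.804, adjusted p = 3.73e-05 by limma). Vkorc1, the vitamin K epoxide reductase that supplies the cofactor for the carboxylation of Bglap and Mgp, rose by 1.67 (adjusted p = 3.3e-05 by limma). Sparc, which encodes the collagen- and mineral-binding protein osteonectin, rose by 2.17 and Col1a2, a chain of type I collagen, by 1.79, which was not called after quantile normalization (1.11). The part in this of the ligament and tendon markers, which were higher in the same libraries, was not tested. Beside cpTi the list had 0 genes called by limma and a median of 0.88, close to that beside the Nb3 alloy, with 18 of 21 differences above 0. Against loaded cpTi, loaded Nb3 alloy was higher in 3 genes of the list, Mgp (2.74), Vkorc1 (0.87) and Sparc (0.90, adjusted p = 0.0305 by limma). With all libraries, 3 of 21 is near the 14.7% of all tested genes called higher. Sparc was not called there under total-read scaling (0.72) or quantile normalization (0.34), nor without loaded Nb3-alloy replicate 3 (0.77) or loaded cpTi replicate 1 (0.83) or 3 (0.89). Without loaded Nb3-alloy replicate 2, 6 of the 21 were called higher in this comparison, where 13.3% of tested genes were.

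Of 10 other transcription regulators of osteoblasts, 9 passed the filter of 1 FPKM in 3 libraries and Msx2 did not. Beside the Nb3 alloy 3 rose and 1 fell by limma under loading (median 0.65), and with loaded replicate 2 left out, 6 rose and 1 fell. Over all tested genes 20.7% were called higher and 25.2% lower with all libraries, and 20.4% higher and 25.1% lower without that replicate. Msx1, a homeodomain factor of jaw and tooth development, averaged 37.3 ± 3.20 FPKM under loading, against 7.72 ± 1.72 FPKM in static samples (2.15, adjusted p = 0.000453). Twist1 (1.41) and Twist2 (1.65), which restrain Runx2 in early osteoblasts of the mouse, rose as well, Twist2 at a low level of 2.71 ± 0.834 FPKM under loading, against 0.168 ± 0.138 FPKM in static samples. Lef1, a Wnt pathway factor that lymphocyte precursors also express, fell by 1.54 (adjusted p = 0.00156), in libraries where the marrow markers were near 0; the part of lymphoid cells in this was not tested. Beside cpTi limma called 0 of the 9 (median 0.13). Against loaded cpTi, loaded Nb3 alloy was higher in Msx1 (1.39) and Twist2 (1.12, adjusted p = 0.0499, not called in 18 of 22 alternatives, with values of 0.89 to 2.04 there) and lower in Lef1 (-1.57), where 14.7% of tested genes were called higher and 18.9% lower.

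Of 5 genes for cell surface receptors of osteopontin and bone sialoprotein, 3 rose and 1 fell by limma under loading beside the Nb3 alloy, where 20.7% of tested genes were called higher and 25.2% lower. The integrin subunit genes Itgb1 (0.92), Itgb5 (0.74) and Itgav (0.76) rose. Itgb3, the beta subunit that osteoclasts and platelets share, averaged 51.2 ± 17.9 FPKM under loading, against 88.3 ± 14.6 FPKM in static samples and fell by 0.82 (adjusted p = 0.0285 by limma). Without loaded replicate 2 it was not called (-0.54), nor without loaded replicate 1 (-0.86), static replicate 1 (-0.80) or static replicate 3 (-0.71), by quantile normalization (-0.78), or in a fit of these groups alone. Itgav was not called under total-read scaling (0.59), nor without loaded replicate 3 (0.68), static replicate 2 (0.61) or static replicate 3 (0.71), and Itgb5 not under total-read scaling (0.56). Cd44, a hyaluronan receptor that also binds osteopontin, averaged 72.4 ± 10.2 FPKM under loading, against 72.5 ± 10.5 FPKM in static samples. In the averaged material effect Cd44 (0.59, adjusted p = 0.0279 by limma) and Itgb1 (0.35, adjusted p = 0.0276 by limma) were higher beside Nb3 alloy, where 3.36% of tested genes were. The call of Cd44 was lost with 5 of the single libraries left out and in 3 other alternatives, and that of Itgb1 with 4 and in 3. Beside cpTi none of the 5 was called by limma. Against loaded cpTi, loaded Nb3 alloy was higher in Itgb1 (0.64, adjusted p = 0.003) and lower in Itgb3 (-0.86, adjusted p = 0.0315, which was lost with no filter (-0.86), with these groups alone, without loaded Nb3-alloy replicate 1 (-0.89) or 2 (-0.58) and without loaded cpTi replicate 1 (-0.96), 2 (-0.75) or 3 (-0.87)).

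**Figure D5:**
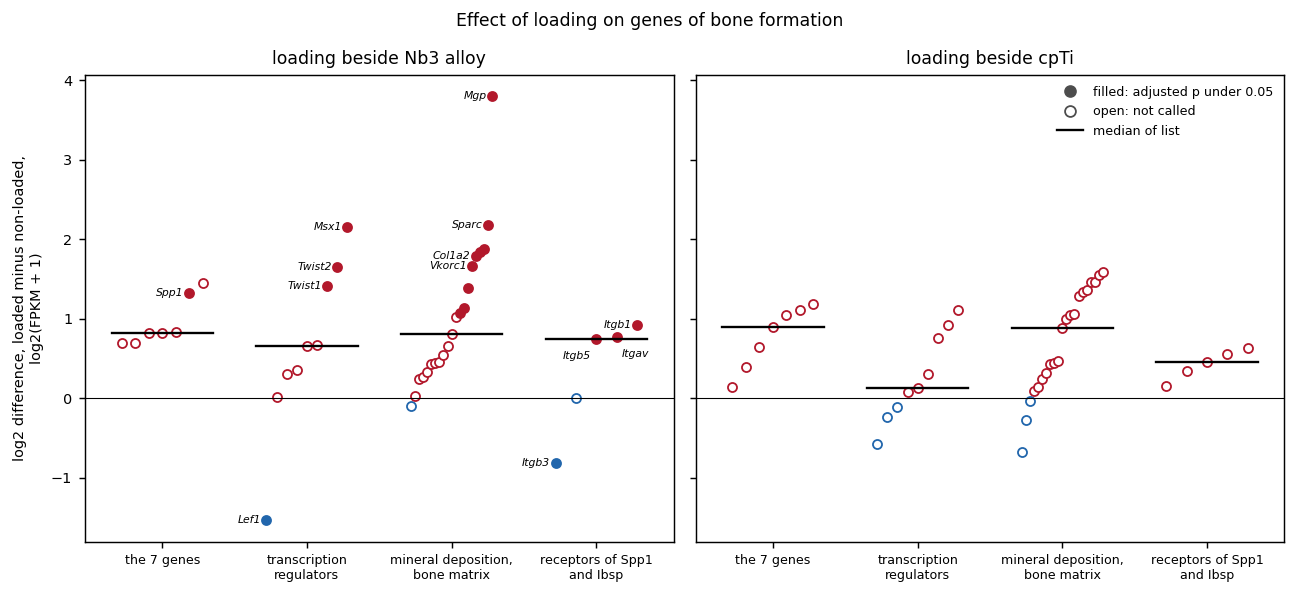
Log2 difference of loaded minus non-loaded samples (vertical axis, log2(FPKM + 1)) for the 7 genes and for 3 lists of related genes (horizontal axis), beside Nb3 alloy and beside cpTi; filled points had an adjusted p under 0.05 by limma, and bars mark list medians. The medians of the 7 genes are 0.82 beside Nb3 alloy and 0.89 beside cpTi, with filled points in the Nb3-alloy panel only.

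The genes whose pattern over the 12 libraries was most like each of the 7 were found by the Pearson correlation of log2(FPKM + 1), among tested genes with a symbol. For Sp7 they included Itga10 (0.97) and Vasn (0.97). For Runx2 they were Creb3l2 (0.96), Zbtb7c (0.96) and Plcd1 (0.95), for Dlx5 Irx3 (0.97), Mrc2 (0.97) and Fgf1 (0.97) and for Alpl Pxylp1 (0.97), Magi2 (0.96) and Nell1 (0.95). Nell1 encodes a secreted protein that promotes bone formation. For Bglap they were Kazald1 (0.95), Pxylp1 (0.94) and Col13a1 (0.94), for Ibsp Entpd3 (0.98), Fgfr2 (0.95) and Unc93a (0.95) and for Spp1 St7l (0.96), Dipk1b (0.93) and Arhgef26 (0.93). Pxylp1 was among the 3 nearest for both Alpl and Bglap, and none of the 3 nearest to Spp1 was among the 3 nearest to another of the 7. The libraries share the group structure and composition given above, and no p is attached to these values.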

How the data were processed

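RNA of 12 bone libraries was measured; per the labels' protocols, TRIzol extracts were enriched for polyadenylated RNA and sequenced from NEBNext Ultra libraries. The authors deposited FPKM (fragments per kilobase of gene length, scaled by depth) for 33801 genes. Named without roles in the submitters' processing notes are DESeq2 1.20.0, featureCounts 1.5.0-p3, HISAT2 2.0.5, fastp and CASAVA 1.8. Not given in the sources used here are the genome build, the annotation and the strand setting. Multiplied by gene length, 100% of the deposited FPKM values were whole numbers of reads within 0.01 read, which gave each library's reads. The implied scaling followed median-of-ratios size factors recomputed from those reads (ratio 0.992 to 1.02).

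Genes at 1 FPKM or more in at least 3 libraries were tested (15268; 18533 were not). The limma package 3.58.1 (R 4.3.3) fitted log2(FPKM + 1) over all 12 libraries with 1 mean per group and 8 residual degrees of freedom, trended and robust moderation, and Benjamini-Hochberg adjustment over all tested genes; a gene was called at an adjusted p under 0.05. A difference on this scale understates changes of low genes. The members, the lists and the rule for named genes (all 7 members; of each list up to 4 called genes by smallest p; the 3 genes most like each member) were chosen with earlier results of these data known. Alternatives were other scalings, filters, pseudocount, moderation, a replicate block, limma-voom on the recovered reads, fits of only the groups compared and the omission of each library; scaling by nuclear reads was added after seeing the data. The fit was tested on simulated data. Exact permutation tests used scipy 1.17.1. 1 gene that the rule for named genes gives is not reported here.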

Additional observations from a re-analysis of the deposited data

Results flagged for a closer look

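None of the 7 genes had a loading effect that differed between the materials by limma's interaction test, but 7 genes of the related lists did. The difference between the loading effects, Nb3 alloy minus cpTi on the log2 scale, was 4.48 for Mgp (adjusted p = 0.000495), 2.22 for Twist2 (adjusted p = 0.019), 1.84 for Msx1 (adjusted p = 0.0206), 1.19 for Vkorc1 (adjusted p = 0.00747) and 0.58 for Itgb1 (adjusted p = 0.0406), and it was -1.38 for Itgb3 (adjusted p = 0.0284) and -1.43 for Lef1 (adjusted p = 0.0339). Over the alternatives, Mgp and Vkorc1 were called in all 22, Msx1 was not called in 2, Twist2 in 1 of 21, Itgb3 in 6, Lef1 in 10 and Itgb1 in 13. Of all tested genes 20.2% were called in this comparison, so 7 of the 35 tested genes of the 3 lists is close to that share.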

How the results depend on the processing

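The count of the 7 genes called depended most on which library was left out. For loading beside Nb3 alloy it was 1, and 0 to 7 with each library left out in turn; it was 0 by quantile normalization, 2 with a filter of 1 FPKM in 6 libraries and 2 by limma-voom. For material under loading it was 1, and 0 to 3 with each library left out; it was 0 under total-read scaling, quantile normalization, no filter and the replicate block. For averaged loading it was 1, and 0 to 7 with each library left out; it was 0 under total-read scaling. For averaged material it was 0, and 0 to 2 with each library left out. In loading beside cpTi, material without loading and the interaction it was 0 in all alternatives run, which included leaving out each library in turn (0 to 0). Among the single differences of the 7 genes, 1019 of 1106 values under alternatives kept direction and side of the threshold, 21 gained and 20 lost the call, and 46 changed sign, all of uncalled differences. With each library left out, ranges that crossed 0 were, for Spp1, -0.25 to 0.38 in loading beside cpTi and -0.42 to 0.26 in material without loading; for Bglap, -0.46 to 0.80 in material under loading, -0.21 to 0.33 in material without loading, -0.50 to 0.76 in the interaction and -0.21 to 0.42 in averaged material; for Ibsp, in the same order, -1.03 to 0.45, -0.25 to 0.24, -1.02 to 0.46 and -0.52 to 0.22; for Sp7, -0.42 to 0.66 in material under loading, -0.76 to 0.32 in the interaction and -0.041 to 0.50 in averaged material; for Runx2, -0.17 to 0.13 in material without loading; and in the interaction -0.16 to 0.71 for Dlx5 and -0.083 to 1.12 for Alpl. Other reversals were Sp7 in material under loading by quantile normalization (0.0015), Dlx5 in the interaction by total-read scaling (-0.0038), and Bglap in averaged material (0.0044) with recomputed size factors (-0.0021), total-read scaling (-0.078), quantile normalization (-0.41) and limma-voom (-0.0015). The cause of these changes was not tested.

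No pairing of the libraries by replicate number was seen. Deviations of same-numbered libraries correlated at -0.25 to 0.11 over 18 pairs, and 2 of 18 matched their own number best. With 3 libraries per group, this check cannot exclude a pairing. The replicate block left 1 of the 7 genes called for loading beside Nb3 alloy (1 without it) and 0 for material under loading (1 without it). For material under loading the block ended the call of Spp1 (1.15, adjusted p = 0.0589 by limma) and, among the genes named from the lists, of Sparc (0.90, adjusted p = 0.0606 by limma) and Twist2 (1.12, adjusted p = 0.0591 by limma). In the interaction it ended those of Itgb1 (0.58, adjusted p = 0.0843 by limma) and Lef1 (-1.43, adjusted p = 0.0636 by limma).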
